A study of Homo sapiens with 4 samples.

Results

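The membrane sector of the vacuolar proton pump is described here through 10 genes, picked by name from the 48162 genes listed in an RNA-seq table of MDA-MB-231 cells: ATP6V0A1, ATP6V0A2, TCIRG1, ATP6V0A4, ATP6V0B, ATP6V0C, ATP6V0D1, ATP6V0E1, ATP6V0E2 and ATP6AP1. MDA-MB-231 is an established line of triple-negative breast cancer cells. The cells received MGH-CP1, an inhibitor of the autopalmitoylation of TEAD transcription factors, or vehicle, and RNA was taken after 24 h from 2 samples of each group. The labels give the MGH-CP1 concentration as 10 µM, whereas the methods print it in mM. The vehicle columns are named DMSO. The labels name no genetic change in either group, and all libraries come from a single cell line. Since nothing states that the replicates were separate cultures, the spread between them may be technical. The gene set was selected on this same contrast, with TCIRG1 known to be among its most significant rises, so the differences between groups for the 10 genes are given as a description, with standard errors and no p-values.

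The V-ATPase is a rotary pump that uses ATP to acidify lysosomes, endosomes, the Golgi and, in some cells, the space outside the plasma membrane. Its soluble V1 sector hydrolyses ATP, and its V0 sector in the membrane carries the protons. In V0, a ring of proteolipid subunits (c and c″) turns against the large a subunit, subunit d couples the ring to the central stalk, subunit e is a small hydrophobic protein, and the accessory protein ATP6AP1 sits inside the ring and helps V0 assemble. The a subunit exists as isoforms from separate genes that direct the pump to different membranes. ATP6V0A1 (a1) is best known from synaptic vesicles, ATP6V0A2 (a2) from the Golgi and endosomes, TCIRG1 (a3) from lysosomes and the ruffled border of osteoclasts, and ATP6V0A4 (a4) from acid-secreting cells of the kidney.

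Recovered fragments on listed genes numbered 25455533 and 25508824 with vehicle, and 17997221 and 17577930 with MGH-CP1, so depth and treatment cannot be told apart. The defining markers of the line, VIM, CD44, MSN and CAV1, were all above 198 FPKM, where FPKM is the fragment number scaled to gene length and to the library's total. Of 4 genes that should be low, ESR1, PGR and CDH1 stayed below 1 FPKM, while EPCAM lay between 12.4 and 16.4 FPKM, against that marker list. The 3 TEAD targets taken as a check of treatment fell, CYR61 by 0.75, CTGF by 0.66 and ANKRD1 by 0.66 on the log2 scale (adjusted p = 3.3e-05, 0.000102 and 5.88e-05, limma). In bulk RNA, fewer cells that express a gene and less of its RNA per cell cannot be told apart.

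In the vehicle libraries the members covered a wide range of levels. ATP6V0E1 was the highest at 81.4 ± 1.01 FPKM (SD, n = 2), followed by TCIRG1 at 41.2 ± 1.11, ATP6V0B at 30.3 ± 3.55, ATP6AP1 at 29.8 ± 0.374, ATP6V0D1 at 21.3 ± 0.787 and ATP6V0E2 at 15.0 ± 0.155. The other 3 a-subunit genes were the lowest measured members above the filter, with ATP6V0A2 at 7.41 ± 0.00616, ATP6V0A1 at 6.10 ± 0.450 and ATP6V0A4 at 4.64 ± 0.326 FPKM. Within this order ATP6V0B and ATP6AP1 overlapped between libraries, and each other pair of neighbours was separated. The order between genes also depends on the gene lengths used, which the SD does not cover. The listed lengths are 5789 bases for ATP6V0A2 and 3135 for ATP6V0A4, whereas GENCODE on GRCh38 gives 13729 and 4124 exon bases. Orders, sums, ratios and shares across genes therefore hold for the listed lengths. After MGH-CP1 the order changed at the top and near the bottom: TCIRG1 (107 ± 1.46 FPKM) lay above ATP6V0E1 (89.4 ± 3.72), and ATP6V0A1 (8.86 ± 0.314) lay above ATP6V0A2 (5.72 ± 0.324). The means of ATP6AP1 (36.2 ± 2.36 FPKM) and ATP6V0B (34.4 ± 0.473) also changed order, but these genes overlapped in this group as well.

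**Figure D1:**
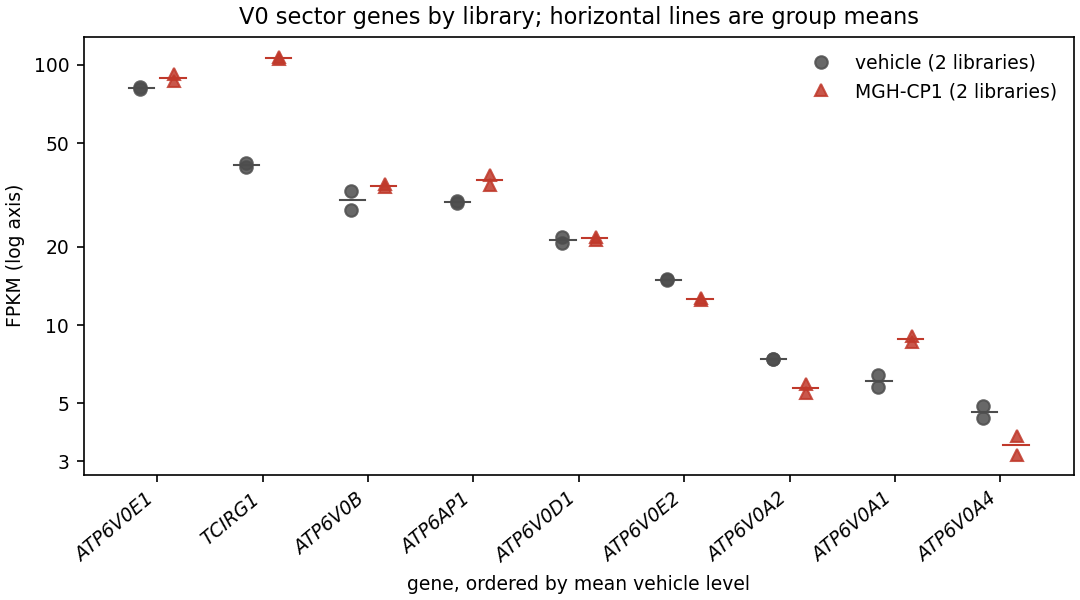
FPKM (log axis) of the 9 V0 sector genes with a mean of at least 1 FPKM, ordered by their mean vehicle level, with a point for each of the 2 libraries per group and a line at each group mean. TCIRG1 moved from 41.2 to 107 FPKM, past ATP6V0E1, while ATP6V0D1 stayed at 21.3 and 21.6 FPKM.

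After MGH-CP1, the a3 gene TCIRG1 was 2.59 times as abundant as in vehicle, ATP6V0A1 1.45 times and ATP6AP1 1.22 times. ATP6V0A2, ATP6V0A4 and ATP6V0E2 were at 0.773, 0.744 and 0.842 times their vehicle level. ATP6V0B, ATP6V0D1 and ATP6V0E1 lay between 1.01 and 1.13 times theirs, and ATP6V0C was listed near 0 throughout. Log2 fold changes are given on the log2(FPKM + 1) scale as MGH-CP1 minus vehicle, with the limma standard error, over 12080 genes with a mean of at least 1 FPKM. A gene is called when its adjusted p is under 0.05. Of the 10 members, 9 passed the filter. Of these, 3 were called higher (TCIRG1, ATP6V0A1 and ATP6AP1), where 27.1% of all genes tested were, and 3 were called lower (ATP6V0A2, ATP6V0A4 and ATP6V0E2), against 23.8% of all genes. In 5 members both MGH-CP1 libraries lay above both vehicle libraries, as they did in 39.8% of all genes, and in 3 they lay below, as in 37.4%. The median log2 fold change of the 9 members was 0.13, and that of all genes tested was 0.01. Because the set was chosen by this contrast, nothing is read from these counts. The calls rest on variance shared between genes: without that sharing, no member and no gene of the lists below was called, and 9 genes in all were called higher and 4 lower.

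Among the a-subunit genes, TCIRG1 differed most. TCIRG1 (ENSG00000110719) spans chr11:67806483-67818362 on the plus strand of hg19, the build named in the submitters' processing notes and used for all gene spans here. Its level was 40.4 and 42.0 FPKM in the vehicle libraries and 108 and 106 FPKM in the MGH-CP1 libraries. The groups were far apart, with a ratio of 2.59 between the means and 2756 to 5185 fragments behind each value. The log2 fold change was 1.35 (SE 0.05), rank 65 of 12080 by size, a rank that follows from how the set was chosen. The vehicle libraries differed from each other by 0.05 and the MGH-CP1 libraries by 0.03 on this scale, while the 4 pairs across groups differed by 1.31 to 1.39.

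ATP6V0A1 (ENSG00000033627, chr17:40610862-40674629, plus strand) went the same way with a smaller difference. Its values were 6.42 and 5.78 FPKM in vehicle and 9.08 and 8.63 FPKM after MGH-CP1, with no overlap between the groups. The log2 fold change was 0.47 (SE 0.08). ATP6V0A2 (ENSG00000185344, chr12:124196865-124245549, plus strand) went the other way, from 7.41 and 7.40 FPKM in vehicle to 5.95 and 5.49 FPKM after MGH-CP1, and the groups did not overlap either. Its log2 fold change was -0.32 (SE 0.08).

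ATP6V0A4 (ENSG00000105929, chr7:138391040-138484305, minus strand) was the lowest of the isoforms at the listed gene lengths. It also lay lower after MGH-CP1, with 4.87 and 4.41 FPKM in vehicle against 3.17 and 3.74 FPKM. The values rest on 179 to 389 fragments, and although the groups did not overlap, the MGH-CP1 libraries differed from each other by 0.18 on the log2 scale. The log2 fold change was -0.34 (SE 0.10). This call was lost without vehicle replicate 1 (-0.28) and without MGH-CP1 replicate 1 (-0.25).

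Set against the other isoforms, the log2 fold change of TCIRG1 was larger by 0.88 than that of ATP6V0A1 (0.76 to 0.99 over the 4 cross-group library pairs), by 1.67 than that of ATP6V0A2 (1.61 to 1.74) and by 1.69 than that of ATP6V0A4 (1.50 to 1.88). In vehicle, TCIRG1 stood at 6.30 and 7.27 times the FPKM of ATP6V0A1, and after MGH-CP1 at 11.9 and 12.2 times. Its ratio to ATP6V0A2 went from 5.46 and 5.68 to 18.1 and 19.2, and its ratio to ATP6V0A4 from 8.30 and 9.52 to 33.9 and 28.2. TCIRG1 was thus the most abundant a-subunit transcript in every library, and each ratio separated the groups.

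The summed FPKM of the 4 a-subunit genes was 59.1 and 59.6 with vehicle and 126 and 123 with MGH-CP1, a ratio of 2.10. Without TCIRG1 the sum was 18.7 and 17.6 in vehicle and 18.2 and 17.9 after MGH-CP1, where the groups overlapped and the ratio of means was 0.994. The difference in the sum therefore lay in TCIRG1, and the values of ATP6V0A1 on one side and of ATP6V0A2 and ATP6V0A4 on the other nearly offset each other. As a share of the a-subunit sum, TCIRG1 made up 68.4% and 70.5% in vehicle and 85.5% in both MGH-CP1 libraries, a difference of 16.1 percentage points. The share of ATP6V0A2 went from 12.5% and 12.4% to 4.73% and 4.45%, that of ATP6V0A4 from 8.24% and 7.40% to 2.52% and 3.03%, and that of ATP6V0A1 from 10.9% and 9.70% to 7.21% and 7.00%. ATP6V0A1 thus held a smaller share after MGH-CP1 although its own level was higher.

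**Figure D2:**
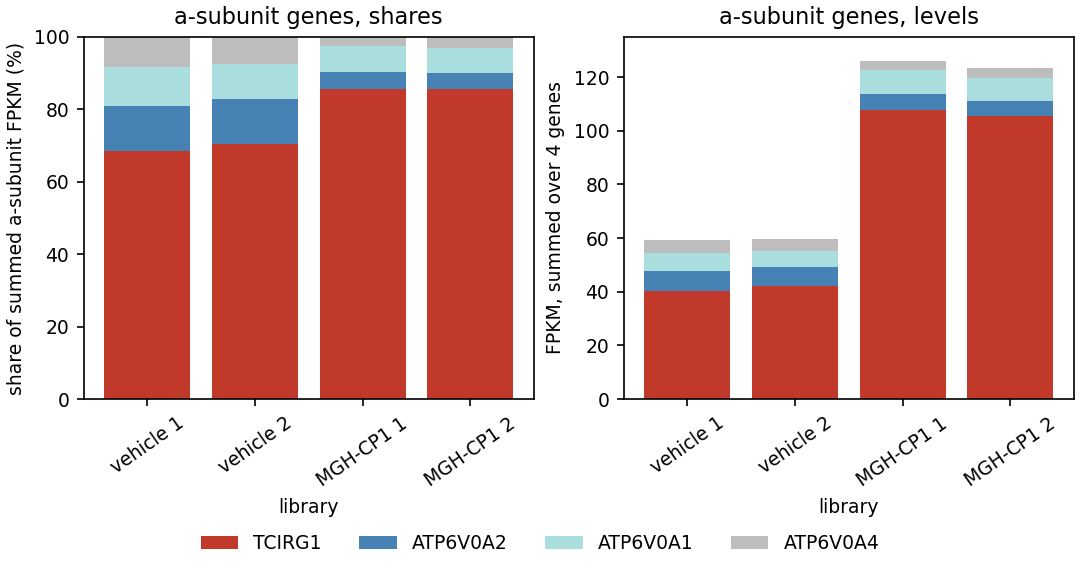
The a-subunit genes by library, as shares of their summed FPKM (left, %) and as stacked FPKM (right). TCIRG1 holds 68.4% and 70.5% of the sum in the vehicle libraries and 85.5% in both MGH-CP1 libraries, while the stacked remainder stays between 17.6 and 18.7 FPKM.

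Isoform a3 is best known from osteoclasts and a4 from kidney intercalated cells, so the markers of these cells were read beside the a-subunit values. The osteoclast genes OCSTAMP and DCSTAMP were at 0 in all 4 libraries, and CALCR, the calcitonin receptor, lay at 0.638 and 0.679 FPKM in vehicle and at 1.50 and 1.46 FPKM after MGH-CP1. All 4 kidney intercalated cell markers (SLC4A1, SLC26A4, FOXI1 and AQP6) stayed below 1 FPKM. Among the blood cell markers, CD3D and CD3E were at 0, PTPRC reached 0.0321 FPKM at most, and the summed level was 3.05 to 3.73 FPKM in vehicle and 6.18 to 6.94 FPKM after MGH-CP1. CD14 and CSF1R made up most of that sum. The part of other cell types in the a-subunit values was not tested.

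In the RefSeq promoter table (GRCh38.p14), 14 start sites were found for 9 of the 10 members, and ATP6V0E1 had no entry. The 250 bases before each start were searched for the E-box CACGTG, for GTCACGTG (CACGTGAC on the other strand), the core of the element through which the MiT/TFE factors act on lysosomal genes and which always contains the E-box, and for the TEAD motif, CATTCC or, read on the other strand, GGAATG. The upstream windows of TCIRG1, ATP6V0B, ATP6V0D1 and ATP6V0E2 are shown, the first for the gene with the largest difference and the others for the members that hold a match, which stands in capitals.
TCIRG1 (chr11:68038775-68039024, plus strand): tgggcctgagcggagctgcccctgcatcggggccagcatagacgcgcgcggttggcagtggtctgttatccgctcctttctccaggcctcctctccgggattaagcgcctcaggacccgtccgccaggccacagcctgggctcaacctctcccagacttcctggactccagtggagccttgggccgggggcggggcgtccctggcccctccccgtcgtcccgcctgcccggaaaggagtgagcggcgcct
ATP6V0B (chr1:43974710-43974959, plus strand): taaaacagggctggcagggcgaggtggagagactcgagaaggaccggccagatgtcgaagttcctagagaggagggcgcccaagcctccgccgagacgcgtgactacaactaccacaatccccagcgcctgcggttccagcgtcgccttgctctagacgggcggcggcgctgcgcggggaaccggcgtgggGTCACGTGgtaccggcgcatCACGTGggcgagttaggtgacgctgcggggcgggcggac
ATP6V0D1 (chr16:67481158-67481407, minus strand): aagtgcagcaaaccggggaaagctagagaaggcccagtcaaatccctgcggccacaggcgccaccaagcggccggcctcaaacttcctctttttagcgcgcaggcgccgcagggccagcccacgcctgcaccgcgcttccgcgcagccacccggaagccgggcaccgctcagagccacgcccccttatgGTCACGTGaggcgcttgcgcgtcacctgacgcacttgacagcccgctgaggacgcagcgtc
ATP6V0E2 (chr7:149872718-149872967, plus strand): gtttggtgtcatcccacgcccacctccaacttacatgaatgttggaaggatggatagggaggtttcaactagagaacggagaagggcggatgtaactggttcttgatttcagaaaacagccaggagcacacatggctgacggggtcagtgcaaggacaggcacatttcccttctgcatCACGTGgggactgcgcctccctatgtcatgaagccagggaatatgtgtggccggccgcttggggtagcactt

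The E-box stood in 4 of the 14 windows, from ATP6V0B, ATP6V0D1 and ATP6V0E2, and in 6.34% of all 35116 windows of the table. ATP6V0B held it at 57 and 39 bases before its start, ATP6V0D1 at 59 bases, and ATP6V0E2 at 72 and 68 bases in overlapping windows of neighbouring starts. The longer GTCACGTG was found in ATP6V0B and ATP6V0D1 only, and in 2.16% of all windows. None of the 14 windows held the TEAD motif, which stood in 11.9% of all windows, and neither window of TCIRG1 held any of these letters. The GC content of the member windows was 53.6% to 80.0%, against a median of 58.0%. The genes with GTCACGTG in this window, ATP6V0B and ATP6V0D1, were among the members not called in the main fit. Whether these letters bear on the differences between groups was not tested. A match or its absence in these windows says nothing of whether a factor binds.

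The ring subunits gave less to compare. ATP6V0B (c″; ENSG00000117410, chr1:44440159-44443967, plus strand) had 27.8 and 32.8 FPKM in vehicle and 34.7 and 34.1 FPKM after MGH-CP1. Its MGH-CP1 libraries lay above both vehicle libraries, but the vehicle libraries alone differed by 0.23 on the log2 scale, more than the log2 fold change of 0.18 (SE 0.08), and the gene was not called. Without vehicle replicate 2, the higher of that pair, its log2 fold change was 0.30 and it was called.

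ATP6V0C, which encodes the proteolipid c that makes up most of the ring, was listed at 0.0669 and 0 FPKM in vehicle and at 0.378 and 0.242 FPKM after MGH-CP1. These values stand for 2, 0, 8 and 5 fragments, so the gene was below the filter and no fold is given. Its listed span (ENSG00000185883, chr16:2563871-2570219, plus strand) lies 100% inside a gene entry named TBC1D24 (ENSG00000260272) and 98.5% inside an entry named ATP6C (ENSG00000259784) on the same strand, and both were at 0 in all libraries. In GENCODE on GRCh38, 72.1% of its exon bases (1080 of 1498) are shared with these entries, whereas the other members share between 0% and 6.90% with any same-strand gene. RNASEK, another small subunit of V0, shares 36.9% of its exon bases with same-strand genes and was also near 0, at 0.0584 FPKM or less. How fragments on shared exons were counted is not stated, so the level of ATP6V0C in these cells cannot be read from the table.

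Subunit d gave the smallest difference of the tested members. ATP6V0D1 (ENSG00000159720, chr16:67471917-67515140, minus strand), the broadly expressed form, had 20.7 and 21.8 FPKM in vehicle and 21.3 and 21.8 FPKM after MGH-CP1. It was the single tested member whose groups overlapped, with a log2 fold change of 0.02 (SE 0.06), which was -0.02 without vehicle replicate 1. ATP6V0D2, the form best known from osteoclasts and the kidney, was below the filter, at 0.177 and 0.224 FPKM in vehicle and 0.977 and 0.721 FPKM after MGH-CP1. These values stand for 11, 14, 43 and 31 fragments. The share of ATP6V0D2 in the summed d-subunit FPKM was 0.845% and 1.02% in vehicle and 4.39% and 3.20% after MGH-CP1. The libraries separated here, on few fragments, while ATP6V0D1 made up at least 95.6% of the sum in each.

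The e-subunit genes lay on opposite sides of their vehicle levels. ATP6V0E1 (ENSG00000113732, chr5:172410760-172462448, plus strand) had 82.1 and 80.7 FPKM in vehicle and 92.1 and 86.8 FPKM after MGH-CP1, without overlap. Its log2 fold change of 0.13 (SE 0.05) was not called in the main fit. It was called higher with a minimum of 5 FPKM, with the replicate number as a block, and by limma voom on recovered fragments. ATP6V0E2 (ENSG00000171130, chr7:149570057-149577787, plus strand) had 15.1 and 14.8 FPKM in vehicle and 12.5 and 12.7 FPKM after MGH-CP1, also without overlap, at a log2 fold change of -0.23 (SE 0.06). The call of ATP6V0E2 was lost without MGH-CP1 replicate 1, at a nearly equal value of -0.22. The share of ATP6V0E2 in the summed e-subunit FPKM was 15.5% in both vehicle libraries and 12.0% and 12.7% after MGH-CP1. The antisense gene ATP6V0E2-AS1 covers 98.9% of the span of ATP6V0E2 and had a log2 fold change of -0.23 as well (SE 0.11, adjusted p = 0.118, limma, 78 to 153 fragments). Whether the counting used strand is not stated, so reads from this pair of genes may not be separated.

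ATP6AP1 (ENSG00000071553, chrX:153656978-153664862, plus strand), the assembly factor also known as Ac45, had 29.5 and 30.0 FPKM in vehicle and 37.9 and 34.5 FPKM after MGH-CP1. The groups did not overlap, and the log2 fold change was 0.27 (SE 0.06). Its partner in the complex, ATP6AP2 (the prorenin receptor), had 65.7 and 64.1 FPKM in vehicle and 72.0 and 65.6 FPKM after MGH-CP1, where the groups overlapped. The log2 fold change of ATP6AP2 was 0.08 (SE 0.06, adjusted p = 0.266, limma).

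TCIRG1 also shifted against the subunits it joins in V0. Its FPKM was 1.95 and 1.92 times that of ATP6V0D1 in vehicle and 5.05 and 4.84 times after MGH-CP1, and 1.45 and 1.28 times that of ATP6V0B in vehicle and 3.10 times in both MGH-CP1 libraries. Against ATP6V0E1 it went from 0.492 and 0.521 to 1.17 and 1.22, that is, from below to above the most abundant member.

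The soluble V1 sector, which hydrolyses ATP, was read from a list of 13 genes, of which 9 passed the filter. Only ATP6V1G1, a stator subunit, was called (11.1% of the list higher, against 27.1% of all genes tested). It rose from 54.5 and 56.3 FPKM to 69.6 and 68.0 FPKM, a log2 fold change of 0.31 (SE 0.05, adjusted p = 0.00115, limma). Of the list, 0 were called lower, against 23.8% of all genes tested. At an unadjusted p under 0.05 and by limma voom on recovered fragments, 0 were lower as well. The catalytic subunit ATP6V1A had 18.9 and 19.1 FPKM in vehicle and 19.5 and 20.7 FPKM after MGH-CP1 (log2 fold change 0.08, adjusted p = 0.305, limma). ATP6V1B2, the regulatory subunit beside it in the ATP-binding head, had a log2 fold change of 0.09, as did ATP6V1H, and those of ATP6V1E1 and ATP6V1C1 were 0.03 and 0.00. Negative values were found for ATP6V1D (-0.06), ATP6V1F (-0.14) and ATP6V1E2 (-0.23), none of them called. ATP6V1F was called lower without vehicle replicate 2 (-0.21) and ATP6V1E2 without MGH-CP1 replicate 2 (-0.42). The median of the list was 0.03, and its range of -0.23 to 0.31 was narrower than the -0.34 to 1.35 of the V0 members, a set chosen with TCIRG1 in view. The 4 genes below the filter, ATP6V1B1, ATP6V1C2, ATP6V1G2 and ATP6V1G3, reached 0.642 FPKM at most.

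**Figure D3:**
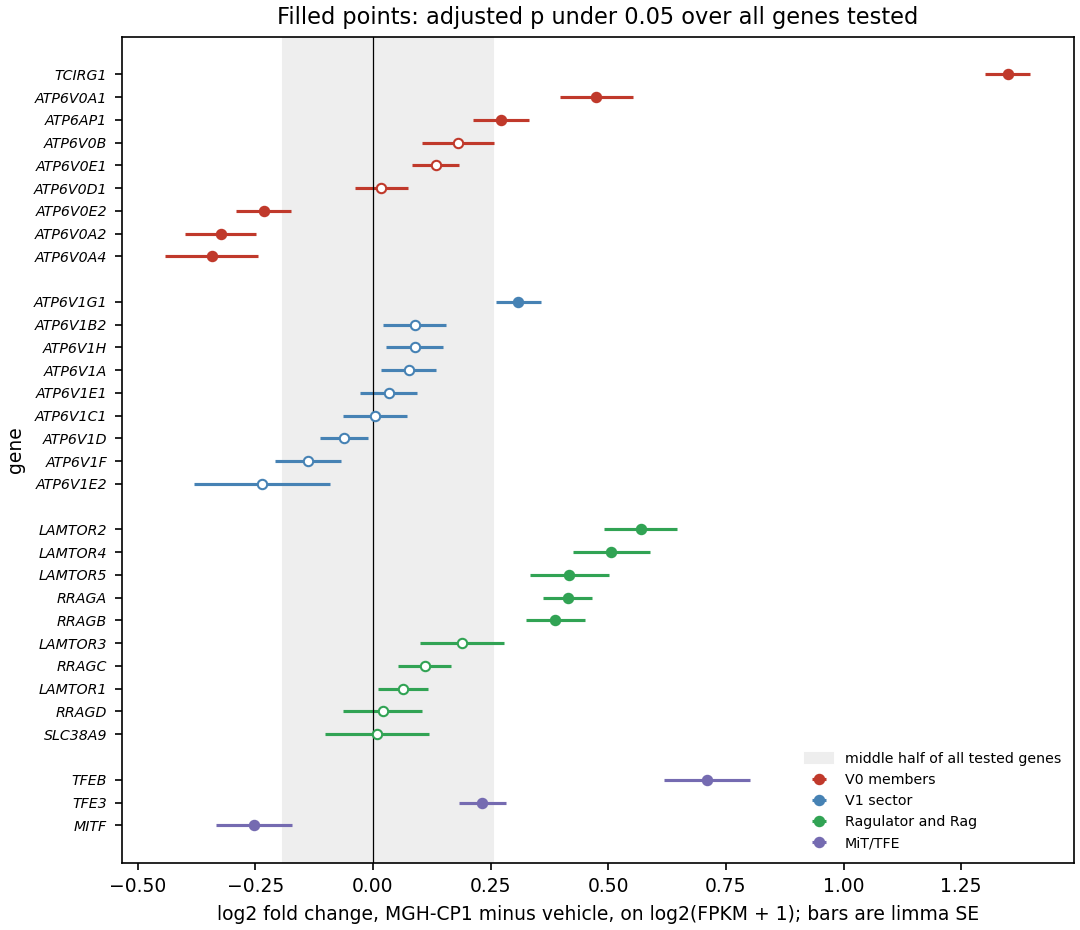
Log2 fold change (MGH-CP1 minus vehicle, on log2(FPKM + 1)), with the limma SE as bars. Shown are the tested V0 members, V1 sector, Ragulator and Rag (with SLC38A9), and MiT/TFE genes. Filled points are called, and the grey band is the interquartile range of all tested genes. TCIRG1 stands at 1.35, and the V1 genes lie between -0.23 and 0.31.

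Around the pump, further lists gave values in both directions. Of 12 tested genes for assembly and regulation, 3 (25%) were called higher and 2 (16.7%) lower, near the 27.1% and 23.8% of all genes tested, with a median of -0.01. CCDC115, an assembly factor of the endoplasmic reticulum, was the highest, at 4.58 and 4.70 FPKM in vehicle and 7.44 and 6.96 FPKM after MGH-CP1 (log2 fold change 0.54, adjusted p = 0.00076, limma). VMA21, a chaperone of V0 assembly, was the lowest, at 32.1 and 29.9 FPKM in vehicle and 19.9 and 23.4 FPKM after MGH-CP1 (-0.50, adjusted p = 0.00133, limma). These factors thus went in opposite directions. Leaving out any 1 library left fewer genes of this list called in each direction, as it did over all genes tested.

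Of 10 tested genes for ion transport in lysosomes and endosomes, 4 (40%) were called higher and 3 (30%) lower, against 27.1% and 23.8% of all genes tested, with a median of 0.11. TPCN1, a cation channel of endosomes and lysosomes, rose from 13.0 and 12.5 FPKM to 26.8 and 26.1 FPKM (log2 fold change 1.00, SE 0.06, adjusted p = 1.98e-05, limma). Leaving out any 1 library left fewer genes of this list called higher and no more called lower. Over all genes tested, fewer were then called in each direction.

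The Ragulator and Rag proteins bind the V-ATPase at the lysosome and recruit mTORC1, the kinase complex that senses amino acids. The list holds their genes and SLC38A9, and all 10 were tested. Of these, 5 (50%) were called higher and 0 lower by limma, against 27.1% and 23.8% of all genes tested. The median was 0.29, against 0.01 over all genes. At an unadjusted p under 0.05 the number lower was also 0, and so it was by limma voom on recovered fragments. LAMTOR2, a Ragulator subunit, rose from 22.7 and 26.9 FPKM to 36.7 and 37.6 FPKM (log2 fold change 0.57, SE 0.08, adjusted p = 0.000607, limma), and LAMTOR4, LAMTOR5, RRAGA and RRAGB were the others called. SLC38A9, the lysosomal arginine sensor, was the lowest of the list, at 4.34 and 4.37 FPKM in vehicle and 4.99 and 3.84 FPKM after MGH-CP1. Its log2 fold change of 0.01 became -0.15 without MGH-CP1 replicate 1 and -0.09 under quantile normalization.

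Among the MiT/TFE factors, which switch on lysosomal genes including those of the V-ATPase, TFEB rose from 4.53 and 3.93 FPKM to 7.97 and 7.12 FPKM (log2 fold change 0.71, SE 0.09, adjusted p = 0.000485, limma). TFE3 was the most abundant of them and rose from 47.8 and 49.4 FPKM to 58.5 and 56.0 FPKM (0.23, SE 0.05, adjusted p = 0.00592, limma). MITF fell from 6.32 and 5.76 FPKM to 4.95 and 4.86 FPKM (-0.25, SE 0.08, adjusted p = 0.0304, limma), a call lost without vehicle replicate 1 (-0.19), without MGH-CP1 replicate 1 (-0.26) and without MGH-CP1 replicate 2 (-0.24). TFEC was below the filter, at 0.00592 FPKM or less. The activity of these factors was not measured.

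At the TCIRG1 locus, the gene entry ENSG00000255031, a processed transcript that the table names after a clone, starts inside the end of TCIRG1 on the same strand, with an overlap of 156 bases. It rose from 2.43 and 2.08 FPKM to 8.71 and 8.63 FPKM (log2 fold change 1.57, SE 0.09, adjusted p = 1.97e-05, limma), on 42 to 124 fragments. Whether its fragments come from a transcript of its own or from the end of TCIRG1 was not tested. Of the 13 tested genes within 500 kb of TCIRG1, this entry included, 6 were called higher and 2 lower, against 27.1% and 23.8% of all genes tested, with a median of 0.16. NDUFS8, a subunit of respiratory complex I that ends 2.37 kb before TCIRG1, was called higher with a log2 fold change of 0.15 (SE 0.05, adjusted p = 0.0348, limma), and CHKA, choline kinase alpha, 1.96 kb past its end, had -0.14 and was not called. ALDH3B1 (0.73, 9.74 kb before) and LRP5, a Wnt co-receptor (0.76, 262 kb past), lay between these and TCIRG1. These 4 neighbours were named after their values were seen.

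**Figure D4:**
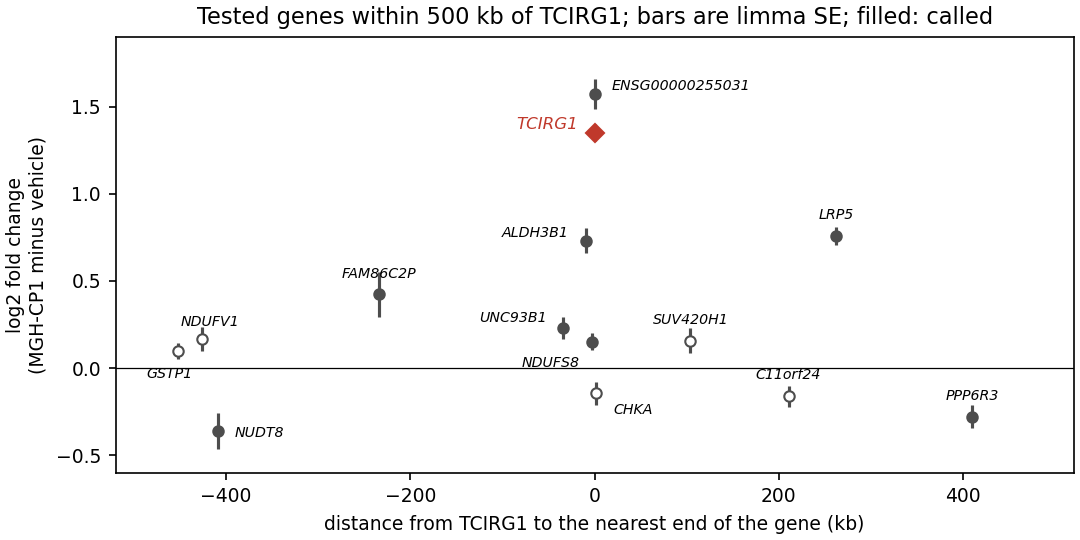
Log2 fold change (MGH-CP1 minus vehicle, bars are the limma SE) of TCIRG1 and of the 13 tested genes within 500 kb, by distance from TCIRG1 in kb, where filled points are called. ENSG00000255031 (1.57) and TCIRG1 (1.35) stand above the other genes, and the adjacent NDUFS8 (0.15, called higher) and CHKA (-0.14, not called) lie below them.

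The genes whose values over the 4 libraries were nearest to those of TCIRG1, by Euclidean distance of centred log2(FPKM + 1), were CA12, COL7A1, CALCOCO1, LPIN3 and RP13-104F24.3, at distances of 0.0531 to 0.0849. CA12, a membrane-bound carbonic anhydrase that faces the outside of the cell, had 7.61 and 7.79 FPKM in vehicle and 22.3 and 21.5 FPKM after MGH-CP1. COL7A1, the collagen of anchoring fibrils, had 5.63 and 6.17 FPKM in vehicle and 16.7 and 16.9 FPKM after MGH-CP1. These genes lie on chromosomes 15, 3, 12, 20 and 17, none of them that of TCIRG1, and with 4 libraries such likeness is a description.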

How the data were processed

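Poly-T selected RNA of MDA-MB-231 cells was sequenced in 2 vehicle and 2 MGH-CP1 libraries. The authors deposited FPKM values with gene lengths and coordinates for 48162 genes. The submitters' processing notes name CASAVA 1.8, STAR and hg19, and the counting tool, its strand setting and the annotation release are not given in the sources used here. Samples and columns were joined on condition and replicate number. The gene list, the other lists and the tests were chosen with earlier results of these data known.

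FPKM times gene length gave whole multiples of a single step for 100% of values (tolerance 0.01), from which fragment numbers were recovered. At 1 FPKM a gene has 17.6 to 25.5 fragments per kilobase of its length. Differences in log2(FPKM + 1) were fitted by limma 3.58.1 under R 4.3.3 (eBayes, trended prior, two-sided) over 12080 genes with a mean of at least 1 FPKM, with Benjamini-Hochberg adjustment and a threshold of 0.05. The fit had 2 residual and 5.975 prior degrees of freedom. An exact permutation test cannot go below p = 0.333 with 2 libraries against 2. The method was also run on simulated data, with normal noise of equal spread in both groups. These data did not carry the depth difference, and nothing here rests on them.

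Named were all members, every tested V1, other V0 and MiT/TFE gene, the highest and lowest gene of each other list, the 5 genes nearest to TCIRG1 and 3 TEAD targets. A listed gene and a cell marker are not reported here. Any other gene was named after its values were seen. Alternatives were a pseudocount of 0.1, no filter, a minimum of 5 FPKM, median-ratio scaling, quantile normalization, a replicate block, limma without the trend, no sharing of variance, limma voom on recovered fragments, and leaving out each library. The deviations of same-numbered libraries had a correlation of 0.0777, so the numbers were not taken to pair the samples.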

Additional observations from a re-analysis of the deposited data

How the results depend on the processing

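The limits are 2 libraries per group, a depth that differs with treatment, and calls that need variance shared between genes. Without that sharing, 9 genes were called higher and 4 lower among all genes, 0 in either direction among the V0 members and in each list, where 3 and 3 members, 1 V1 gene, 3 and 2 assembly genes, 4 and 3 ion transport genes, 5 Ragulator and Rag genes and 2 and 1 MiT/TFE genes had been called. The log2 fold change of TCIRG1, a gene chosen for its rise in these libraries, was 1.32 to 1.38 under all alternatives run. With the replicate number as a block, 5 members were called higher (ATP6V0B and ATP6V0E1 added) and 1 V1 gene lower, and limma voom on recovered fragments also gave 5 members called higher. Over all 12080 genes tested, the block gave 3466 higher and 3052 lower, and voom 3480 and 3113, against 3273 and 2869 in the main fit. The block moved the count of no other list by over 1.5 times. With a minimum of 5 FPKM, 8439 genes were tested, of which 2434 were called higher and 2564 lower. Then 4 members were called higher (ATP6V0E1 added) and 2 lower, with ATP6V0A4 below the minimum. With no filter on low values, 24878 genes were tested, of which 2280 were called higher and 1844 lower. The counts were then 1 higher in the other V0 list, 1 lower in the assembly list and 1 higher in the ion transport list. They were 3 higher in the Ragulator and Rag list and 0 lower in the MiT/TFE list. ATP6V0A4 and ATP6AP1 lost their calls. Leaving out 1 library left fewer genes called in each direction over all genes tested, and some members and list genes lost or gained a call. The members called in the main fit kept their signs. Their log2 fold changes were then 0.41 to 0.54 for ATP6V0A1, 0.21 to 0.34 for ATP6AP1 and -0.37 to -0.27 for ATP6V0A2. Those of ATP6V0A4 were -0.43 to -0.25, and those of ATP6V0E2 -0.24 to -0.22. With 1 library left out, the difference in TCIRG1 share between the groups was 15.0 to 17.2 percentage points, against 16.1 with all libraries, and no share reversed. Values that changed sign, none of them called, were those of ATP6V1C1 (-0.0090 under median-ratio scaling, and -0.060 to 0.068 with 1 library left out), ATP6V1E1 (-0.047 to 0.11 with 1 library left out), ATP6V0D1 (-0.019 to 0.053) and SLC38A9 (-0.15 to 0.16, with -0.0022 under median-ratio scaling and -0.087 under quantile normalization). The cause of these changes was not tested.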
